A study of Homo sapiens with 11 samples.

Results

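The genes described here are DPPA2, DPPA3, DPPA4 and DPPA5, which carry the name developmental pluripotency associated, and NLRP2 and NLRP7, members of the NOD-like receptor family. They were taken by gene symbol from both deposited expression tables, which gave 6 of 23287 genes, each present once per table and read in all 11 libraries. RNA was sequenced from the human embryonic stem cell lines H1 and H7. Every group had 1 library. For 9 libraries a lentivirus carried a short hairpin RNA (shRNA) into the cells, which were taken on day 5 after infection. These groups were 5iLA naive H7 with pCCNE1, uCCNE1 or control shRNA, t2iGo naive H1 with the same 3 shRNAs, and primed H1 with the same 3 shRNAs. The pCCNE1 shRNA is aimed at a primate-specific splice form of cyclin E1, while the labels do not spell out what uCCNE1 stands for. A gene-level value sums the splice forms. The remaining 2 libraries were untreated 5iLA naive H7 and untreated primed H7. 5iLA is a mix of kinase inhibitors with LIF and activin, and t2iGo combines MEK and GSK3 inhibition with a protein kinase C inhibitor. Both media are meant to hold the naive state, which resembles the preimplantation epiblast, whereas primed cells resemble a later epiblast. Line and medium change together between 5iLA H7 and the H1 cultures, and a difference in medium cannot be told apart there from a difference in line.

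DPPA2 and DPPA4 are DNA-binding proteins with a SAP domain that act as a pair on chromatin, and in the mouse they help to switch on genes of the early embryo. DPPA3, also called STELLA, is a maternal protein of the egg and of primordial germ cells, and in the mouse it restrains the maintenance of DNA methylation through UHRF1. DPPA5 is a small RNA-binding protein with a KH domain, and its relatives KHDC1, KHDC1L, KHDC3L (listed as C6orf221) and OOEP lie beside it on chromosome 6. NLRP2 and NLRP7 are related genes that neighbour each other on chromosome 19. Both are maternal-effect genes of the egg and early embryo, and maternal mutations of NLRP7 cause recurrent hydatidiform mole. Most of the group are expressed in germ cells or oocytes and, in human pluripotent cells, are used as signs of the naive state.

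The promoter windows of 4 genes are shown because the results turn on the contrast between them: DPPA3, DPPA5 and NLRP7, whose RNA was high in 5iLA H7 and close to 0 in the H1 cultures, and DPPA4, whose RNA was high everywhere. The sequences are from RefSeq, build GRCh38.p14, and hold 250 bases before and 50 bases after the annotated start, read 5′ to 3′ on the strand of the gene. The capitals mark CG dinucleotides, the sites of DNA methylation.
DPPA3 (chr12:7711183-7711482, plus strand): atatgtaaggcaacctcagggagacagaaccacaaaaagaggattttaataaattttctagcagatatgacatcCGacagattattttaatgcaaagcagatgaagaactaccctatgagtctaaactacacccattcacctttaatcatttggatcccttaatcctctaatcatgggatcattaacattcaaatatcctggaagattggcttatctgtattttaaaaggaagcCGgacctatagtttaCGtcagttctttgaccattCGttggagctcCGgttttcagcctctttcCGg
DPPA5 (chr6:73354227-73354526, minus strand): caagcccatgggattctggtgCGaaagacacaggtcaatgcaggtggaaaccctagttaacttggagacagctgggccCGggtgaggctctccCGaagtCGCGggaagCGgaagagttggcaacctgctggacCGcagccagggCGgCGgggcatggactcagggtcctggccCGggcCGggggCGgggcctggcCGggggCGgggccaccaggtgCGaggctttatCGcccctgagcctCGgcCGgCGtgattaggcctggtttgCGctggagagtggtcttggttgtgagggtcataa
NLRP7 (chr19:54947481-54947780, minus strand): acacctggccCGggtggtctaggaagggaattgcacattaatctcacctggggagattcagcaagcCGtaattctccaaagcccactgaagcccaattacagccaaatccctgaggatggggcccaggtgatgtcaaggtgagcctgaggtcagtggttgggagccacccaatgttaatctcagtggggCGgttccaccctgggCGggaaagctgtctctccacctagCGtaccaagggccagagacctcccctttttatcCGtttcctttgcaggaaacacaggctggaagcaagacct
DPPA4 (chr3:109337497-109337796, minus strand): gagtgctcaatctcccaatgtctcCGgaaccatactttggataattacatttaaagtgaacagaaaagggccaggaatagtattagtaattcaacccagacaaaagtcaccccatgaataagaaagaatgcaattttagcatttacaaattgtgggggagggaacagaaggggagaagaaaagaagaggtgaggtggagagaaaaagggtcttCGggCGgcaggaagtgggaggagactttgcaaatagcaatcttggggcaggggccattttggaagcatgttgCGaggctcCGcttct

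The windows did not share a CG content. DPPA5 held 20 CG dinucleotides, NLRP2 held 12, DPPA2 held 7, DPPA3 and NLRP7 held 6 each and DPPA4 held 5, against a median of 14 over 35116 promoter windows of the same length. DPPA5 was the member whose window lay above that median, and 58.8% of windows held fewer CG dinucleotides than it did. The window of DPPA4, the gene expressed in every culture, and that of NLRP7, the gene with the highest level in 5iLA, differed by 1 CG. 5 motifs were searched on both strands: the octamer ATGCAAAT, the AP-2 motif GCCNNNGGC, the KLF motif GGGNGTGG, the TATA box TATAAA and the bicoid-type motif TAATCC. They occur in 1.77%, 23.2%, 17.2%, 11.5% and 6.36% of all windows in that order. DPPA5 held 2 AP-2 matches that do not overlap, the first at -74 from the annotated start, DPPA2 held 1 KLF match at -125, and DPPA3 held 1 bicoid-type match at -90. DPPA4, NLRP2 and NLRP7 held none of the 5. A match is a string of letters and not a bound site.

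The libraries differed in ways that touch every value below. The unit was the RPKM deposited by the authors, a read count divided by transcript length and by sequencing depth. Estimated depth lay between 6.25 and 24.5 M reads. The 6 shRNA libraries of 5iLA and t2iGo summed to 139202 to 224314 RPKM, of which 13.1% to 27.5% fell on small RNA entries. For primed H1 the sum was 341088 to 357685 RPKM with 0.218% to 0.521% on small RNAs, and in untreated 5iLA and primed H7 the small RNA part was 31.6% and 9.86%. As deposited, most genes read lower in the shRNA libraries of 5iLA and t2iGo than in those of primed H1, while in the untreated H7 pair 33.9% of genes read lower in 5iLA. The median log2 difference over 12116 genes tested was -1.23 for 5iLA H7 against primed H1, -0.31 for 5iLA H7 against t2iGo H1 and -0.82 for t2iGo H1 against primed H1. Differences of the 6 genes are given beside these medians and under 3 other scalings: median-ratio scaling, quantile normalization, and protein-coding (NM) entries rescaled to a common sum. The library names in the description labels have another form for primed H1 than for the other 8 libraries, and whatever that marks cannot be told apart from the primed state of H1. The target CCNE1 was at 8.38, 5.27 and 14.1 RPKM in 5iLA H7 with pCCNE1, uCCNE1 and control shRNA, at 5.25, 5.38 and 9.65 RPKM in t2iGo H1, and at 10.5, 6.75 and 11.95 RPKM in primed H1, below the control in all 6 knockdown libraries.

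The state labels were checked with 12 naive and 17 primed marker genes. Of the naive markers, 10 to 11 reached 1 RPKM in the shRNA libraries of 5iLA H7, 0 to 1 in t2iGo H1 and 2 to 3 in primed H1. KLF17 was listed at 0 to 0.0325 RPKM in t2iGo H1, TFCP2L1 was at 0.210 to 0.236 RPKM and DNMT3L at 0.455 to 0.701 RPKM. In 5iLA H7 the same genes were at 0.693 to 1.23, 7.16 to 9.76 and 77.8 to 97.96 RPKM, and in primed H1 at 0 to 0.0132, 0.185 to 0.291 and 0 to 0.143 RPKM. Of the primed markers, 15 to 16 reached 1 RPKM in t2iGo H1, 6 to 7 in 5iLA H7 and 17 in primed H1. Their level was lower in t2iGo H1 than in primed H1, at 0.505% to 0.537% against 0.679% to 0.814% of summed NM RPKM. In 5iLA H7 it was 0.0417% to 0.0788%. VIM was higher in t2iGo H1, at 292 to 346 RPKM against 170 to 190 RPKM in primed H1. TCF7L1 was far lower there, at 0.478 to 1.05 RPKM against 48.5 to 68.9 RPKM, as was DUSP6. The naive markers KLF5 and TBX3 were higher in t2iGo H1 than in primed H1, KLF5 at 0.950 to 2.79 RPKM against 0.589 to 0.750 RPKM. Most naive markers thus went against the naive label of the t2iGo H1 libraries, while the primed markers lay between the other cultures in summed level. The t2iGo H1 libraries are called by their medium below. Of 10 endoderm markers 6 to 8 reached 1 RPKM in t2iGo H1, with a summed level of 66.96 to 151 RPKM. In 5iLA H7 it was 1 of 10 with a sum of at most 3.13 RPKM, and in primed H1 0 to 2 of 10 with 1.95 to 6.89 RPKM. The part of those markers in the results was not tested, and in bulk RNA fewer cells of a type and less RNA per cell cannot be told apart.

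5 of the 6 genes were higher in 5iLA H7 than in t2iGo H1 and primed H1, and DPPA4 was expressed in all 9 shRNA libraries. Of these 5, DPPA3, DPPA5, NLRP2 and NLRP7 were at 100.4 RPKM or more in 5iLA H7 and at or under 1.47 RPKM in the H1 libraries. DPPA2 was at 14.5 to 21.8 RPKM in 5iLA H7 and at 0.747 to 2.15 RPKM in the H1 libraries. Among the 12116 genes tested, 561 (4.63%) had all 3 of their 5iLA H7 values above every t2iGo and primed value, and 5 of the 6 members were among them. DPPA3, DPPA5, NLRP2 and NLRP7 passed the filter of a mean of 1 RPKM through their 5iLA libraries alone, so that they had to differ there. Their differences from 5iLA are therefore given as a description, with no p from the filtered fit, and also with a pseudocount of 0.1, since values near 0 leave the size of a log2 difference to the pseudocount. DPPA2 and DPPA4 passed it without those libraries.

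**Figure D1:**
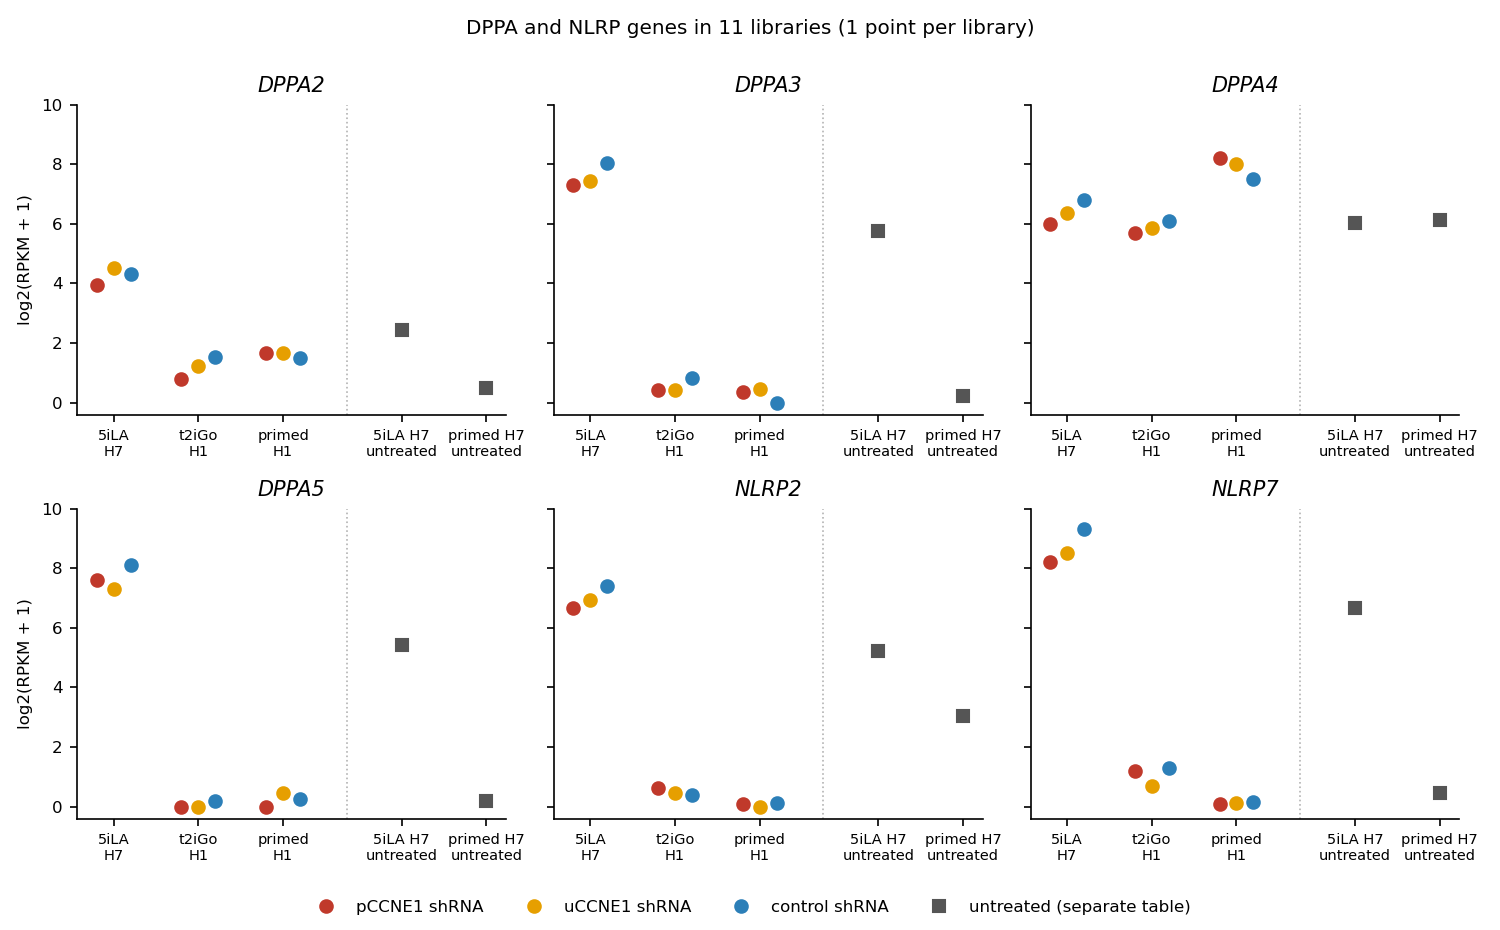
Level of each gene on the log2(RPKM + 1) scale in every library, with 1 point per library and colours for the shRNA; squares are the untreated H7 libraries, which come from a separate table. DPPA3, DPPA5, NLRP2 and NLRP7 lie at 6.66 or more in the 3 shRNA libraries of 5iLA H7 and at 1.31 or less in all 6 H1 libraries, whereas DPPA4 lies at 5.68 or more throughout.

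NLRP7 had the highest level of the group. It was at 293, 361 and 628 RPKM in 5iLA H7 with pCCNE1, uCCNE1 and control shRNA, at 1.28, 0.5997 and 1.47 RPKM in t2iGo H1, and at 0.0508, 0.0769 and 0.113 RPKM in primed H1. The 3 cultures did not overlap, and the lowest 5iLA value was 199 times the highest t2iGo value. In the 5iLA control library NLRP7 ranked 36 of 23287 genes. The t2iGo values correspond to an estimated 18.8 to 66.4 reads and the primed values to 3.84 to 6.98 reads. The log2 difference was 8.56 ± 0.23 (SE) for 5iLA H7 against primed H1 and 7.61 ± 0.23 for 5iLA H7 against t2iGo H1, and with the smaller pseudocount it was 11.15 and 8.46.

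NLRP2, its neighbour, was at 100.4, 121 and 168 RPKM in 5iLA H7 with pCCNE1, uCCNE1 and control shRNA. It was at 0.527, 0.376 and 0.316 RPKM in t2iGo H1 and at 0.0732, 0 and 0.0772 RPKM in primed H1, in the same order of shRNAs. The 3 cultures again did not overlap. The log2 differences were 6.93 ± 0.20 for 5iLA H7 against primed H1 and 6.51 ± 0.20 for 5iLA H7 against t2iGo H1, or 9.77 and 7.99 with the smaller pseudocount. Within a library the ratio of NLRP7 to NLRP2, which no single factor per library can move, was 2.92, 2.98 and 3.75 in the 5iLA shRNA libraries and 2.74 in untreated 5iLA H7. Both values are per kilobase. The transcripts of the pair share 365 of their 50-base words, 11.2% of those of NLRP7 and 10.6% of those of NLRP2, and the genes overlap on opposite strands in GENCODE v29. Whether the counting used strand is not given in the sources used here, so reads of 1 gene may have been given to the other.

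DPPA5 was at 195, 156 and 273 RPKM in 5iLA H7 with pCCNE1, uCCNE1 and control shRNA. It was listed at 0, 0 and 0.138 RPKM in t2iGo H1 and at 0, 0.377 and 0.204 RPKM in primed H1. The H1 values stand on 0 to 5.04 estimated reads and overlap each other, while the 5iLA values lie above all of them. With these zeros the size of the log2 difference rests on the pseudocount: it was 7.43 ± 0.20 for 5iLA H7 against primed H1 and 7.61 ± 0.20 against t2iGo H1 with a pseudocount of 1, and 9.70 and 10.57 with 0.1. A listed 0 may be a failed estimate in these tables: H3F3A, a histone gene used by every cell, was listed at 0.0001 to 0.0003 RPKM in all 11 libraries.

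DPPA3 was at 156, 172 and 260 RPKM in 5iLA H7, at 0.358, 0.339 and 0.768 RPKM in t2iGo H1 and at 0.273, 0.371 and 0 RPKM in primed H1, with pCCNE1, uCCNE1 and control shRNA in that order. The H1 cultures overlapped, and the lowest 5iLA value was 203 times the highest t2iGo value. For 5iLA H7 the log2 difference was 7.32 ± 0.22 against primed H1 and 7.02 ± 0.22 against t2iGo H1, or 9.52 and 8.42 with the smaller pseudocount. Of the 50-base words in its transcript, 45.9% also occur in transcripts of other genes, mostly the pseudogene DPPA3P2, so its level is less certain than that of DPPA4, for which the share is 0.759%. The levels of DPPA3 and DPPA5 were close within each 5iLA library: their ratio was 0.798, 1.10 and 0.953 with pCCNE1, uCCNE1 and control shRNA, and 1.26 in untreated 5iLA H7.

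DPPA2 was lower than the other genes in 5iLA H7 and was the only 1 of the 5 with values above 1 RPKM in primed H1. It was at 14.5, 21.8 and 18.98 RPKM in 5iLA H7, at 0.747, 1.36 and 1.91 RPKM in t2iGo H1 and at 2.14, 2.15 and 1.81 RPKM in primed H1, with pCCNE1, uCCNE1 and control shRNA in that order. The t2iGo and primed values overlapped, and the 5iLA values lay above both. The log2 differences were 2.66 ± 0.19 for 5iLA H7 against primed H1 and 3.07 ± 0.19 for 5iLA H7 against t2iGo H1 (limma, adjusted p = 2.44e-07 and 3.84e-07).

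DPPA4, the partner of DPPA2 and its neighbour on chromosome 3, had another pattern. It was at 63.2, 80.8 and 111 RPKM in 5iLA H7, at 50.2, 57.7 and 67.7 RPKM in t2iGo H1 and at 296, 258 and 179.5 RPKM in primed H1, in the same order of shRNAs. The primed values lay above all others, and the 5iLA and t2iGo values overlapped. The log2 difference was -1.52 ± 0.27 for 5iLA H7 against primed H1 (limma, adjusted p = 2.07e-04), close to the median of all genes at -1.23. It was not past the threshold under any of the other scalings, at -0.27 with median-ratio scaling, -0.31 with quantile normalization and -0.092 with rescaled NM entries (limma, adjusted p = 0.260, 0.165 and 0.709). Against t2iGo H1 the 5iLA value was 0.50 ± 0.27 higher as deposited (limma, adjusted p = 0.130), and it passed the threshold under those scalings, at 0.96, 0.71 and 0.77 (limma, adjusted p = 0.00339, 0.0106 and 0.00825). DPPA4 exceeded DPPA2 by 3.70 to 5.83 times in the 5iLA shRNA libraries, by 35.4 to 67.1 times in t2iGo H1 and by 99.1 to 139 times in primed H1, a ratio within each library. In untreated 5iLA H7 this ratio was higher than in the 5iLA shRNA libraries, at 14.5, and in untreated primed H7 it was 171.

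Of the 2 members that pass the filter without 5iLA, DPPA2 was called higher and DPPA4 lower in 5iLA H7 against primed H1, where 7.74% of all genes were called higher and 76.8% lower. Against t2iGo H1 DPPA2 was called higher and DPPA4 was not called, where 14.9% of all genes were called higher and 40.1% lower. With no filter, all 23287 genes enter and none is kept or dropped by its level. The members were chosen with earlier results of these data known, and a fit with no filter does not undo that choice. In that fit 6.64% of genes were called higher against primed H1, with limma adjusted p = 1.20e-04 for NLRP7, 1.17e-04 for NLRP2, 1.17e-04 for DPPA5 and 1.32e-04 for DPPA3. Against t2iGo H1 8.37% of genes were called higher, with limma adjusted p = 4.44e-04, 3.84e-04, 3.64e-04 and 4.79e-04 in the same order of genes. The split of calls over all genes moved with the scaling. Of the genes called for 5iLA H7 against primed H1, 9.15% were higher as deposited and 42.2% to 48.4% under the other 3 scalings, and against t2iGo H1 27.1% as deposited and 40.5% to 51.6%. DPPA2 passed the threshold in both comparisons under each of these scalings and without each library in turn.

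**Figure D2:**
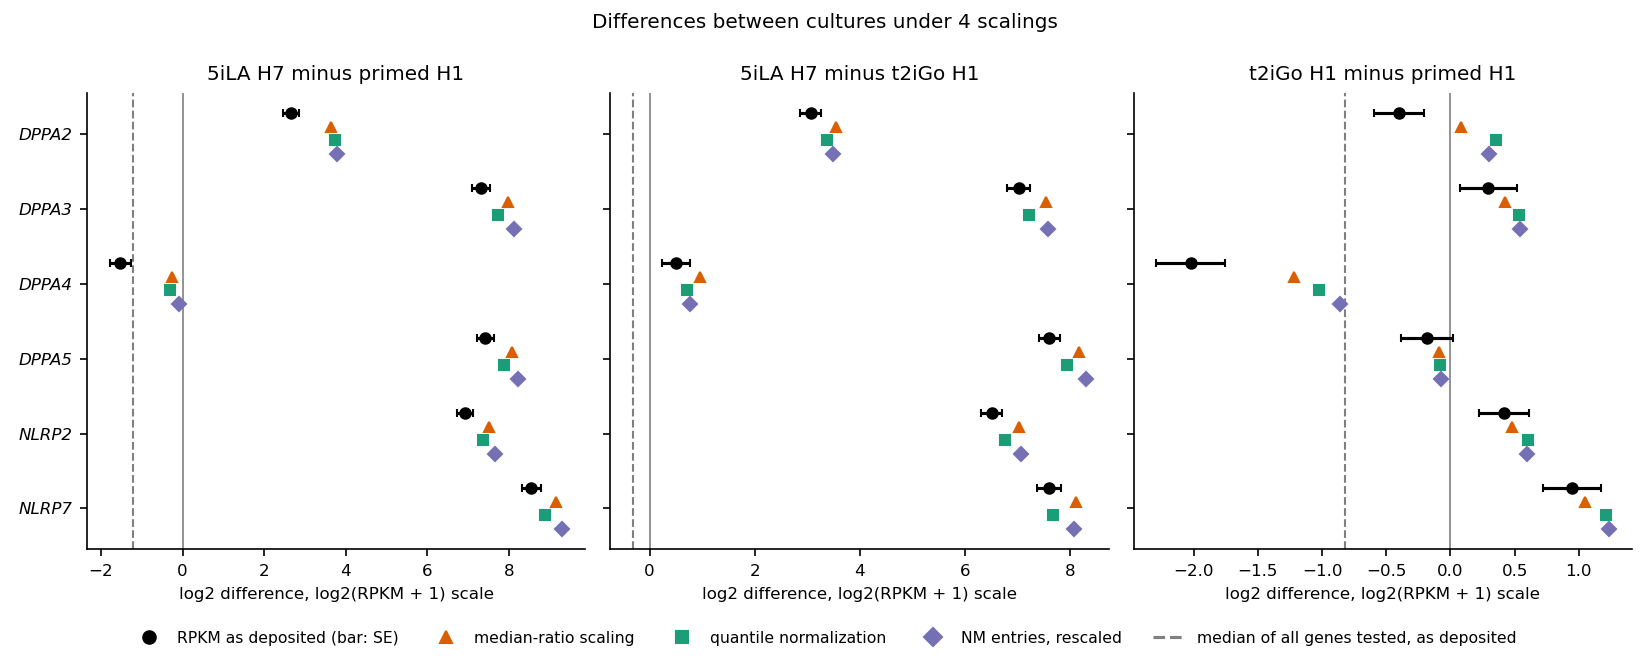
Log2 differences between cultures for each gene, as deposited with the SE from limma (black) and under 3 other scalings; the dashed line is the median of all genes tested and the solid line is 0. In the first 2 panels DPPA4 lies near 0 or the median while the other genes lie between 2.66 and 8.56 as deposited, and in the third panel the horizontal scale is narrower and DPPA2 changes sign with the scaling.

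In t2iGo H1 against primed H1, both of the same line, 2 members were called. DPPA4 was lower in t2iGo, with a log2 difference of -2.02 ± 0.27, and NLRP7 was higher, at 0.95 ± 0.23 (limma, adjusted p = 3.06e-05 and 0.00277). As background, 63% of all genes were called lower and 8.77% higher, and of all calls 12.2% were higher as deposited, against 49.7% with quantile normalization, 42.8% with median-ratio scaling and 57.3% with rescaled NM entries. Both member calls kept their direction and stayed past the threshold under these scalings. The remaining members were not called: DPPA2 at -0.40 ± 0.19, DPPA3 at 0.29 ± 0.22, DPPA5 at -0.18 ± 0.20 and NLRP2 at 0.42 ± 0.20 (limma, adjusted p = 0.0815, 0.252, 0.440 and 0.0738). NLRP2 passed the threshold under all 3 other scalings, at 0.61, 0.48 and 0.59 for quantile, median-ratio and NM rescaling (limma, adjusted p = 0.00640, 0.0206 and 0.00875). With a pseudocount of 0.1 NLRP2 was also called, at 1.78, and NLRP7 was at 2.69 (limma, adjusted p = 3.31e-04 and 9.59e-06). DPPA3 passed under the 3 scalings at 0.53, 0.42 and 0.54 (limma, adjusted p = 0.0195, 0.0473 and 0.0173). Single libraries also decided calls. Without the t2iGo control library NLRP2 was at 0.57 and DPPA2 at -0.59 (limma, adjusted p = 0.0489 and 0.0356), without the primed control library DPPA2 was at -0.56 (limma, adjusted p = 0.0475), and without the pCCNE1 or the control library of 5iLA, which change only the spread, NLRP2 was at 0.42 (limma, adjusted p = 0.0427 and 0.0388). When only these 6 libraries enter the filter, DPPA3, DPPA5, NLRP2 and NLRP7 fall under a mean of 1 RPKM, and DPPA4 alone was called, so the NLRP7 call concerns a gene at 0.5997 to 1.47 RPKM in t2iGo H1.

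The untreated H7 pair sets 5iLA against primed cells within 1 line, with 1 library each and no test. NLRP7 was at 99.4 RPKM in untreated 5iLA H7 and 0.361 RPKM in untreated primed H7, DPPA3 at 52.7 and 0.165 RPKM, and DPPA5 at 41.97 and 0.151 RPKM, in the same order. The log2 differences were 6.21, 5.53 and 5.22, where the median of 11015 genes was 0.23. DPPA2 was at 4.43 RPKM in untreated 5iLA H7 and 0.407 RPKM in untreated primed H7, a log2 difference of 1.95. DPPA4 was at 64.4 RPKM in untreated 5iLA H7 and 69.5 RPKM in untreated primed H7, a log2 difference of -0.11. 5 members lay past a log2 difference of 1 in the direction of 5iLA and DPPA4 did not, where 11% of genes lay past 1 in that direction and 3.94% in the other. As 2 members, DPPA4 and NLRP2, reached 1 RPKM in untreated primed H7, the others passed the filter through the 5iLA library.

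NLRP2 stood apart from the other members in untreated primed H7. It was at 36.3 RPKM in untreated 5iLA H7 and 7.22 RPKM in untreated primed H7, a log2 difference of 2.18, and the primed value stands on an estimated 334 reads. NLRP7 in the same primed library stands on an estimated 15.7 reads, and the ratio of NLRP7 to NLRP2 there was 0.04998, against 2.74 in untreated 5iLA H7. NLRP2 ranked 3800 of 23287 genes in untreated primed H7 and 16368 to 17672 in the primed H1 libraries. The untreated and shRNA tables were treated as scaled apart from each other, so this difference between primed H7 and primed H1 was not tested.

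Members were also lower in untreated 5iLA H7 than in the 3 shRNA libraries of 5iLA H7, given as ppm of summed NM RPKM because the tables are separate. NLRP7 took 649 ppm in the untreated library and 2616 to 4055 in the shRNA libraries. DPPA3 took 344 ppm untreated and 1391 to 1676 with shRNAs, DPPA5 took 274 and 1484 to 1759, NLRP2 took 237 and 895 to 1155, and DPPA2 took 28.9 and 123 to 208. DPPA4 took 420 ppm untreated and 564 to 768 with shRNAs. Primed markers moved the other way. The 17 genes took 0.301% of summed NM RPKM in untreated 5iLA H7 and 0.0417% to 0.0788% in the shRNA libraries. So did 9 fibroblast and feeder markers, at 0.103% untreated and 0.00274% to 0.0183% with shRNAs. The part of these markers in the difference was not tested.

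The shRNA comparisons asked whether the knockdown of CCNE1 forms moved the group. No member was called. For pCCNE1 against control over the 3 cultures, the log2 differences ran between -0.43 ± 0.23 for NLRP7 and -0.17 ± 0.27 for DPPA4 (limma, adjusted p = 0.396 and 0.797), with a median of -0.15 over all genes. All 6 were below 0 as deposited, where 73.8% of all genes were, and DPPA4 and NLRP2 turned positive under quantile and NM scaling. For uCCNE1 against control they ran between -0.49 ± 0.23 for NLRP7 and 0.019 ± 0.19 for DPPA2 (limma, adjusted p = 0.494 and 0.977), with a median of -0.14, and DPPA4 and NLRP2 were positive under all 3 other scalings. By limma 0 of 12116 genes (0%) were called in either comparison, while 1792 (14.8%) and 1236 (10.2%) had an unadjusted p under 0.05. No member had one, and the closest was NLRP7 with uCCNE1 at an unadjusted limma p of 0.0533. For pCCNE1 against uCCNE1 the members lay between -0.33 ± 0.19 for DPPA2 and 0.058 ± 0.23 for NLRP7 (limma, adjusted p = 0.990 and 0.993), where 0 genes were called and 495 (4.09%) had an unadjusted p under 0.05. The SE of these differences was 0.19 to 0.27 on the log2 scale. DPPA3, DPPA5, NLRP2 and NLRP7 lay at or under 1.47 RPKM in the H1 libraries, where log2(RPKM + 1) keeps differences small. The pooled fit averages over cultures, so it can miss a difference limited to 5iLA H7. NLRP7 with pCCNE1, for example, was at -1.10 in 5iLA H7, -0.12 in t2iGo H1 and -0.083 in primed H1.

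In single cultures the members are given as values, with 1 library per side. In 5iLA H7 all 6 were lower with pCCNE1 than with control shRNA as deposited, where 76.1% of all genes were lower. DPPA2 turned positive, at 0.062 and 0.078, under median-ratio and NM scaling. NLRP7 was at 46.7% of its control level, a log2 difference of -1.10, and was the 1 member past a difference of 1, where 4.9% of genes lay past 1 on the lower side. DPPA4 was at 57.2%, NLRP2 at 59.9%, DPPA3 at 60.1%, DPPA5 at 71.7% and DPPA2 at 76.5%. The median of all genes in that library pair was -0.30, and with rescaled NM entries NLRP7 was at -0.63, DPPA4 at -0.34 and DPPA5 at -0.014. With uCCNE1 5 of the 6 were lower, where 78.9% of all genes were lower. NLRP7 and DPPA5 were lower by the most, at 57.5% and 57.2% of control, and DPPA2 was at 115%. DPPA4 and NLRP2 turned positive there, at 0.10 and 0.095 with rescaled NM entries. With uCCNE1 in 5iLA H7, with pCCNE1 and uCCNE1 in t2iGo H1 and with pCCNE1 and uCCNE1 in primed H1 no member lay past 1, where 5.46%, 3.46%, 1.02%, 4.53% and 3.44% of genes did. The 5iLA control library had the highest summed RPKM of the 6 shRNA libraries of 5iLA and t2iGo, 224314. Marker sums differed between the same 5iLA libraries. The 12 naive markers summed to 281 and 219 RPKM with pCCNE1 and uCCNE1, against 422 RPKM with control shRNA. Of 10 tested, 3 lay past 1 on the lower side with each shRNA and 1 on the higher side with pCCNE1. ALPPL2 had the largest fall in RPKM, at 32.3 and 28.3 RPKM against 156 RPKM, and made up most of the fall of the sum with pCCNE1. KLF5 was at 28.6 and 22.2 RPKM against 28.8 RPKM, and SUSD2 at 39.9 and 13.8 RPKM against 19.3 RPKM. The 9 fibroblast and feeder markers summed to 14.1 and 19.3 RPKM, against 4.25 RPKM with control shRNA. In t2iGo H1 the 10 endoderm markers summed to 146 and 151 RPKM with pCCNE1 and uCCNE1, against 66.96 RPKM with control shRNA, and the fibroblast and feeder markers to 257 and 159 RPKM, against 90.04 RPKM. The 8 core pluripotency genes summed there to 415 and 494 RPKM, against 551 RPKM with control shRNA, with 5 and 2 of them past 1 on the lower side. The part of these sums in the differences of the members was not tested.

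DPPA4 lay below its control in both naive media and above it in primed H1 as deposited, although under median-ratio and NM scaling the uCCNE1 value in 5iLA H7 was positive. With pCCNE1 it was at 57.2% of control in 5iLA H7, 74.1% in t2iGo H1 and 165% in primed H1, and with uCCNE1 at 73.0%, 85.2% and 144%. The pCCNE1 difference in naive media minus that in primed H1 was -1.33 ± 0.46 for DPPA4, with an unadjusted limma p of 0.0182 that did not pass adjustment (limma, adjusted p = 0.608). For DPPA3 it was -0.90 ± 0.40, and the uCCNE1 difference was -0.95 ± 0.40 (limma, adjusted p = 0.738 and 0.983, unadjusted p = 0.0490 and 0.0405). No member was called for either, where 27 genes (0.223%) were called for pCCNE1 and 19 (0.157%) for uCCNE1. The primed H1 values of DPPA3 that enter it rest on 0 to 7.87 estimated reads.

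**Figure D3:**
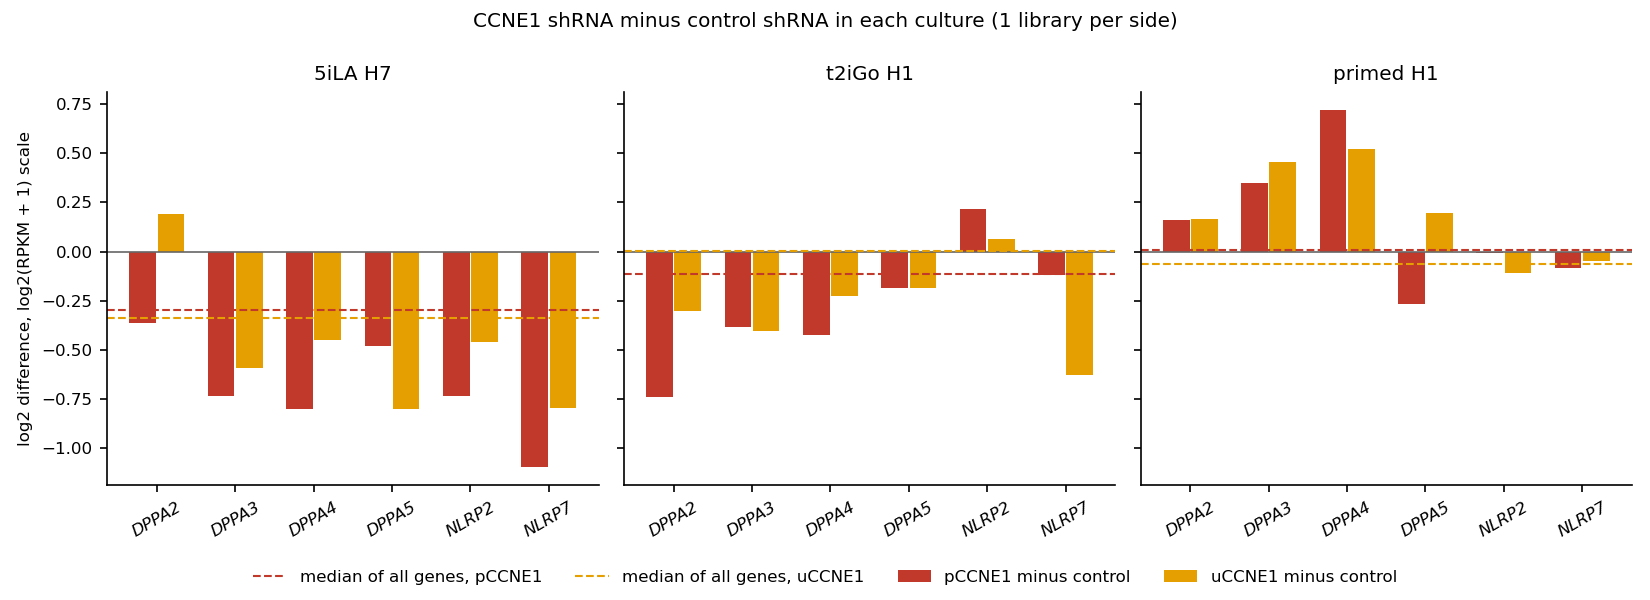
Log2 difference of each CCNE1 shRNA library from the control library of its own culture, 1 library per side, with the median of all genes tested as a dashed line in the colour of the shRNA. As deposited, all bars of 5iLA H7 but DPPA2 with uCCNE1 lie below 0, and DPPA4 lies below 0 in both naive media and above 0 in primed H1; under other scalings DPPA2 with pCCNE1 and DPPA4 and NLRP2 with uCCNE1 in 5iLA H7 change sign.

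The genes around the members showed how far each pattern reached along its chromosome. On chromosome 6 most relatives of DPPA5 were high in 5iLA H7 too. KHDC1L was at 187, 171 and 407 RPKM in 5iLA H7 with pCCNE1, uCCNE1 and control shRNA, and C6orf221 (KHDC3L, part of the subcortical maternal complex of the egg) was at 32.9, 16.1 and 25.3 RPKM. In t2iGo H1 and primed H1 they were at or under 0.724 and 0.235 RPKM. OOEP was at 4.13 to 8.71 RPKM in 5iLA H7 and listed at 0 in all 6 H1 libraries, and DDX43, a helicase gene expressed in testis, was at 7.55 to 12.7 RPKM in 5iLA H7 and 0 to 0.114 RPKM in the H1 libraries. KHDC1, which lies between KHDC1L and DPPA5, was highest in primed H1, at 0.513 to 0.748 RPKM in 5iLA H7, 0.151 to 0.403 RPKM in t2iGo H1 and 2.97 to 3.80 RPKM in primed H1. Of the 4 KHDC and OOEP genes KHDC1 alone passed the filter without 5iLA. It was called lower in 5iLA H7 against primed H1 at -1.47 ± 0.18 (limma, adjusted p = 1.14e-05), where 76.8% of all genes were called lower. Under median-ratio and NM scaling KHDC1 was at -0.72 and -0.63. The remaining neighbours EEF1A1, a translation factor, and MTO1 were at -1.77 ± 0.22 and -0.098 ± 0.18 (limma, adjusted p = 1.27e-05 and 0.618). Under the same 2 scalings EEF1A1 was at -0.50 and -0.33 and MTO1 turned positive. For t2iGo H1 against primed H1 KHDC1 was called lower at -1.84 ± 0.18 (limma, adjusted p = 3.00e-06), where 63% of all genes were called lower.

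On chromosome 12 DPPA3 lies between GDF3, a TGF-beta family ligand, and CLEC4C, with NANOG, a core pluripotency factor, further along. GDF3 was at 268, 252 and 218 RPKM in 5iLA H7 with pCCNE1, uCCNE1 and control shRNA, at 4.20 to 16.6 RPKM in t2iGo H1 and at 2.55 to 8.09 RPKM in primed H1. NANOG was at 74.7, 61.96 and 130 RPKM in 5iLA H7 and at 4.29 to 22.9 and 18.7 to 51.2 RPKM in t2iGo and primed H1. The glucose transporter genes SLC2A3 and SLC2A14 were called lower in 5iLA H7 against primed H1, at -1.74 ± 0.25 and -0.71 ± 0.28 (limma, adjusted p = 4.05e-05 and 0.0314). Under median-ratio and NM scaling SLC2A3 was at -0.49 and -0.31 and SLC2A14 turned positive. Of the 4 genes tested in this list 2 were called higher, GDF3 and NANOG, and 2 lower, where 7.74% of all genes were called higher and 76.8% lower. CLEC4C, next to DPPA3 on its other side, stayed at or under 0.520 RPKM in all 9 shRNA libraries. On chromosome 3 MORC1 and GUCA1C were at or under 0.0683 RPKM, while PVRL3 (NECTIN3), beyond DPPA4 and named after its values were seen, was at 1.25 to 1.82 RPKM in 5iLA H7 and 13.4 to 19.5 RPKM in the H1 libraries. On chromosome 19 NCR1, next to NLRP7, was at 2.95, 3.62 and 7.03 RPKM in 5iLA H7 and at or under 0.408 RPKM in the H1 libraries, so that it passed the filter through 5iLA alone. Of the other 3 genes tested there, RDH13 was called higher against primed H1 at 0.42 ± 0.17, and EPS8L1 and PPP1R12C lower at -1.04 ± 0.18 and -1.73 ± 0.23 (limma, adjusted p = 0.0356, 1.87e-04 and 2.06e-05). The median of all genes was -1.23. Under median-ratio and NM scaling RDH13 was at 1.34 and 1.48, EPS8L1 at -0.32 and -0.23, and PPP1R12C at -0.74 and -0.61.

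**Figure D4:**
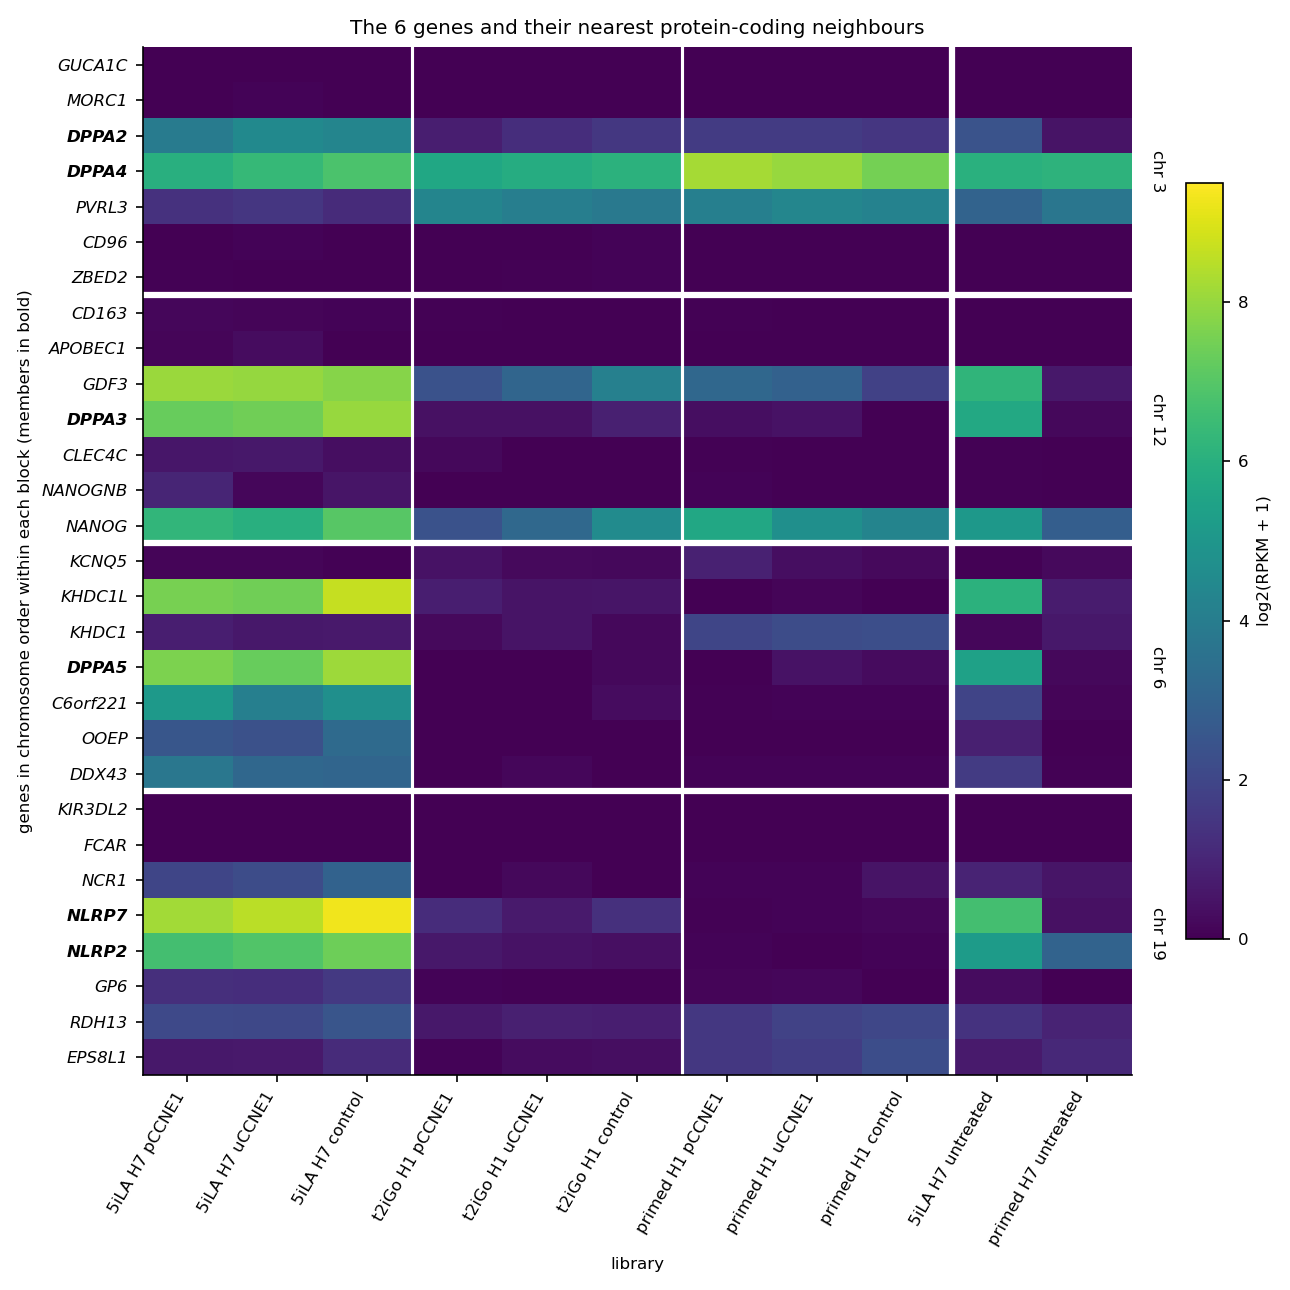
Levels on the log2(RPKM + 1) scale of the 6 genes (bold) and their nearest measured protein-coding neighbours, in chromosome order within each block by RefSeq, across the 11 libraries. KHDC1L, DPPA5, C6orf221, OOEP and DDX43 share the 5iLA columns on chromosome 6 while KHDC1 does not, and DPPA4 is bright in every column.

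Other genes of the same families and of germ cells were read from lists. Of 12 other NLRP genes 1 passed the filter: NLRP12 was at 3.16, 2.63 and 1.98 RPKM in 5iLA H7 with pCCNE1, uCCNE1 and control shRNA and at 0.107 to 0.692 RPKM in the H1 libraries, so that it passed through 5iLA alone. The 12 summed to 4.46 to 6.02 RPKM in 5iLA H7, against 100.4 to 168 RPKM for NLRP2 alone. Of the 6 genes of the subcortical maternal complex, C6orf221 and OOEP passed the filter, both through 5iLA alone.

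Of 10 primordial germ cell regulators 7 were tested, 6 of them passing the filter without 5iLA, and of these 1 was called higher and 3 lower in 5iLA H7 against primed H1, where 7.74% of all genes were called higher and 76.8% lower. The median of the 7 was 0.22, and PRDM1 passed through 5iLA alone. TFAP2C, a transcription factor of the naive state and of germ cell founders, was higher at 2.86 ± 0.18, and KIT, a receptor of migrating germ cells, was lower at -1.34 ± 0.17 (limma, adjusted p = 7.57e-08 and 1.98e-05), while PRDM1 was at 1.76 ± 0.19. Under NM scaling KIT was near its primed level, at -0.11, and TFAP2C and PRDM1 were at 3.93 and 2.41. DND1 and PDPN, the other lower genes, turned positive under that scaling, at 0.38 and 0.84. Of 19 later germline genes 6 were tested. SYCP3, HORMAD1, MAEL and TDRD1 passed the filter through 5iLA alone, and the 2 that pass without it were called lower. SYCP3 and HORMAD1, proteins of meiotic chromosomes, were at 26.5 to 70.3 and 22.7 to 35.4 RPKM in 5iLA H7 and at or under 0.166 and 0.226 RPKM in the H1 libraries. DAZL, an RNA-binding protein of germ cells and 1 of those 2, was at 0 to 0.0285 RPKM in 5iLA H7, 1.57 to 1.98 RPKM in t2iGo H1 and 4.21 to 7.13 RPKM in primed H1. The directions of SYCP3, HORMAD1 and DAZL were the same under median-ratio and NM scaling. Of 18 genes of the 8-cell stage KHDC1L alone passed the filter, through 5iLA.

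DNA methylation genes were tested as the process that DPPA3 acts on. All 8 passed the filter, 7 of them without 5iLA. Of these 7, 2 were called higher and 5 lower in 5iLA H7 against primed H1, where 7.74% of all genes were called higher and 76.8% lower, and the median of all 8 was -1.31 beside -1.23 for all genes. DNMT3L, a cofactor of the de novo enzymes that passed through 5iLA alone, was at 6.45 ± 0.16. DNMT3B and DNMT1 were lower at -3.01 ± 0.23 and -2.39 ± 0.19 (limma, adjusted p = 3.17e-07 and 4.48e-07). These directions were the same under median-ratio and NM scaling. UHRF1, named after its values were seen because DPPA3 acts on it, was at 2.69, 1.98 and 3.12 RPKM in 5iLA H7 with pCCNE1, uCCNE1 and control shRNA, at 3.25 to 5.13 RPKM in t2iGo H1 and at 4.13 to 9.59 RPKM in primed H1. It was called lower in 5iLA H7 against primed H1 at -1.14 ± 0.26 (limma, adjusted p = 0.00166), and with rescaled NM entries UHRF1 was at 0.013 and DNMT3A at -0.12.

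The genes whose profile was most like each member were found by Pearson correlation over the 9 shRNA libraries on the log2 scale. They follow largely from the gap between the 5iLA libraries and the rest and are given without a test. For DPPA3 they were ZNF729, ZNF98 and LOC650226, for DPPA5 SNAR-A6, ZNF257 and LOC650226, and for NLRP2 TRIM60, ZNF676 and KHDC1L, with r of 0.999 for the first of each. ZNF729, a zinc finger gene, was at 70.5, 62.1 and 97.4 RPKM in 5iLA H7 with pCCNE1, uCCNE1 and control shRNA and at or under 0.268 RPKM in the H1 libraries. For NLRP7 they were KHDC1L (r of 0.998), DNMT3L and CCDC144A, and for DPPA2 ATP6V0A4 (r of 0.988), ITGAM and PLD6. For DPPA4 they were RAB5A (r of 0.993), NSDHL and DLST, genes of general cell functions. RAB5A, an endosome GTPase, was at 16.2, 17.1 and 23.2 RPKM in 5iLA H7, 14.3 to 15.8 RPKM in t2iGo H1 and 29.6 to 37.6 RPKM in primed H1. Among the members themselves, r was 0.962 to 0.998 for pairs without DPPA4 and -0.341 to -0.120 for pairs with it.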

How the data were processed

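RNA-seq libraries of H1 and H7 cells were made from total RNA with the RNeasy Mini and TruSeq RNA kits, per the labels' protocols. The authors deposited RPKM values for 23287 genes in 2 tables, of 9 shRNA and 2 untreated libraries. TopHat2 2.3.0, Cufflinks 1.2.1 and the hg19 build are named per the submitters' processing notes, and the labels do not give their settings. RPKM was analysed as log2(RPKM + 1). In each table, genes with a mean of 1 RPKM or more were tested, 12116 and 11015 genes.

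Culture and shRNA were fitted as additive terms over the 9 shRNA libraries with limma 3.58.1 in R 4.3.3, with 4 residual degrees of freedom, an intensity trend and two-sided p-values. These were adjusted by Benjamini-Hochberg over all genes tested and called at 0.05. A second fit added the shRNA difference between naive media and primed, with 2 residual degrees of freedom. Groups hold 1 library, so libraries of another culture or shRNA stood in for replicates, and p-values measure only the spread between these libraries. The fit was tested on simulated data. Single-library differences have no test and were called at a log2 difference of 1. Alternatives were a pseudocount of 0.1, no filter, 3 other scalings, no trend, only the libraries compared, no term for the other factor, and each library, shRNA or culture left out.

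Read numbers were estimated from the steps of low RPKM values and GENCODE v29 transcript lengths and are approximate. Promoters came from RefSeq (GRCh38.p14), where all 6 genes matched, and no coordinate was carried over from hg19. Python 3.11.15, numpy 2.4.6, pandas 2.3.3 and matplotlib 3.10.9 were used. The 6 members and 19 gene lists were chosen with earlier results of these data known. Genes named are the members, CCNE1, the 3 genes most correlated with each member, up to 3 genes per list and comparison (those called with the largest difference in size, then the largest) and neighbours in the locus lists. H3F3A and the state markers named singly were chosen after their values were seen. Columns of no sample numbered 0.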

Additional observations from a re-analysis of the deposited data

Results flagged for a closer look

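For 4 of the genes both CCNE1 shRNA libraries lay on 1 side of their control in 1 culture and on the other side in another. Each value below is the mean log2 difference from control in the first culture minus that in the second. These differences were not tested, 7 were found, and both shRNAs of a culture share 1 control library, so the 2 signs are not independent. A sign counted however small the difference was. The share of all genes with such a pattern is not given here, so the pattern cannot be read as a trait of these genes.

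DPPA4 lay lower with pCCNE1 and uCCNE1 in 5iLA H7 (-0.80 and -0.45) and in t2iGo H1 (-0.43 and -0.23), and higher in primed H1 (0.72 and 0.52). The difference was -1.24 for 5iLA H7 minus primed H1 and -0.95 for t2iGo H1 minus primed H1. Its values stand on an estimated 884 to 19112 reads.

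DPPA3 lay lower in 5iLA H7 (-0.73 and -0.59) and in t2iGo H1 (-0.38 and -0.40) and higher in primed H1 (0.35 and 0.46), with differences of -1.06 for 5iLA H7 minus primed H1 and -0.79 for t2iGo H1 minus primed H1. Its primed control library is listed at 0. DPPA2 lay lower in t2iGo H1 (-0.74 and -0.30) and higher in primed H1 (0.16 and 0.17), a difference of -0.68. In the same t2iGo libraries the endoderm markers summed to 146 and 151 RPKM, against 66.96 RPKM with control shRNA, and their part in the difference was not tested.

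NLRP2 lay lower in 5iLA H7 (-0.73 and -0.46), higher in t2iGo H1 (0.21 and 0.065) and lower in primed H1 (-0.0054 and -0.11). The difference was -0.74 for 5iLA H7 minus t2iGo H1 and 0.20 for t2iGo H1 minus primed H1, where the t2iGo and primed values rest on 0 to 15.1 estimated reads.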

How the results depend on the processing

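The 5iLA call of DPPA2 against both H1 cultures kept its direction and side of the threshold under all alternatives run. No paired analysis was possible because each group has 1 library, beyond pairing the cultures by shRNA, which the shRNA term of the culture fits does. Without that term DPPA2 was called higher and DPPA4 lower in 5iLA H7 against primed H1, where 911 of 12116 genes were called higher and 9236 lower. Against t2iGo H1 DPPA2 was called higher, where 1580 genes were called higher and 4721 lower. DPPA3, DPPA5, NLRP2 and NLRP7 passed the filter through 5iLA alone, so their 5iLA calls are left out here. In t2iGo H1 against primed H1 1 member was higher and 1 lower, as with the term, where 1043 genes were called higher and 7593 lower. In t2iGo H1 against primed H1, 2 members were called as deposited, where 8.77% of all genes were called higher and 63% lower. It was 3 members with a pseudocount of 0.1, where 1027 of 12116 genes were called higher and 7491 lower. Under quantile, median-ratio or NM scaling it was 4. Genes called higher and lower there were 4043 and 4085 of 12116, 3325 and 4444 of 11855, and 4477 and 3341 of 11195. With only the libraries compared 2 members were tested and 1 was called, where 1158 of 12318 genes were called higher and 8115 lower. Without single libraries or shRNAs 2 to 4 members were called, where 7629 to 9166 genes were. DPPA2 was at 0.35, 0.084 and 0.30 for quantile, median-ratio and NM scaling. Without single libraries or shRNAs DPPA3 ranged between -0.015 and 0.46 and DPPA5 between -0.31 and 0.038. The cause was not tested.

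For pCCNE1 against control, DPPA3 was at 0.079 with a pseudocount of 0.1, DPPA4 at 0.044 and NLRP2 at 0.067 with quantile scaling, and DPPA4 at 0.064 and NLRP2 at 0.020 with NM scaling. Leaving libraries out gave -0.61 to 0.15 for DPPA4 and -0.37 to 0.038 for NLRP2. For uCCNE1 against control, the pseudocount gave DPPA2 -0.0072 and DPPA3 0.22, quantile scaling DPPA4 0.15 and NLRP2 0.069, median-ratio scaling DPPA4 0.093 and NLRP2 0.0078, and NM scaling DPPA4 0.16 and NLRP2 0.039. Leaving libraries out gave -0.14 to 0.20 for DPPA2, -0.50 to 0.043 for DPPA3, -0.42 to 0.21 for DPPA4 and -0.32 to 0.045 for NLRP2. For pCCNE1 against uCCNE1, NLRP2 was at 0.30 with the pseudocount. Leaving libraries out gave -0.22 to 0.090 for DPPA3, -0.42 to 0.099 for DPPA4, -0.27 to 0.17 for DPPA5, -0.14 to 0.20 for NLRP2 and -0.17 to 0.31 for NLRP7.

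For the naive minus primed difference of pCCNE1, DPPA5 was at 0.74, 0.15, 0.062 and 0.037 with the pseudocount, quantile, median-ratio and NM scaling, and NLRP2 at 0.096 and 0.030 with quantile and NM scaling. For uCCNE1, NLRP2 was at 0.69, 0.18, 0.11 and 0.15 in the same order, and DPPA2 at 0.058 and 0.045 with median-ratio and NM scaling. None of these was called. Members past a log2 difference of 1 between single libraries numbered 0 for pCCNE1 in 5iLA H7 under median-ratio and NM scaling, against 1 as deposited. With the pseudocount they were 2 for pCCNE1 and 2 for uCCNE1 in t2iGo H1, and 2 and 1 in primed H1, against 0. The values behind these lie at 0 to 1.91 RPKM. The shares of all genes past 1 under these settings are not given here, so the counts cannot be read as a trait of the members.

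Over all genes, calls ranged between 7339 and 12623 for 5iLA H7 against primed H1, where 938 were called higher and 9310 lower as deposited. They ranged between 4605 and 6962 against t2iGo H1 (1806 higher and 4856 lower), and between 7629 and 10280 for t2iGo H1 against primed H1 (1062 higher and 7633 lower). They ranged between 0 and 163 for pCCNE1, 0 and 217 for uCCNE1, and 0 and 81 between both, where none was called as deposited, and between 0 and 576 (27) and 0 and 608 (19) for the naive minus primed differences. Few reads limit DPPA3, DPPA5, NLRP2 and NLRP7 in H1 cells.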
